A study of Mus musculus with 12 samples.

Results

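Reg4 and 7 further secreted products of deep crypt secretory and Paneth-type cells were followed across the colonic epithelium of control mice and of mice lacking Ehf in the intestine. The 8 members were Reg4, Spink4, Pla2g2a, Mptx1, Reg3b, Reg3g, Lyz1 and Mmp7, chosen by name out of 55304 gene symbols, with their response in the knockout already known. All 8 were found in the count tables, and 6 had enough reads to be tested, while Lyz1 and Mmp7 did not. Total RNA came from 12 C57BL/6 mice aged 6 weeks, with 4 mice in each of 3 groups. EHF IKO mice are labelled as an intestinal knockout of Ehf and received tamoxifen, and their source names begin with EVCER. Control-OIL mice carry the same EVCER prefix, are labelled wild-type and received sunflower oil. Control-TMX mice came from the VilCreER line, in which the Villin promoter drives a tamoxifen-activated Cre recombinase in intestinal epithelium. They are labelled wild-type and received tamoxifen. EHF IKO therefore differed from Control-OIL in treatment as well as genotype, and from Control-TMX in line as well as genotype. The 2 control groups differed from each other in both line and treatment, which cannot be told apart. The alleles behind the EVCER prefix and the deleted exons are not given in the sources used here.

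Deep crypt secretory cells sit between the stem cells at the base of colonic crypts, where they take the place that Paneth cells hold in the small intestine. They are marked by Reg4, a secreted C-type lectin, and supply neighbouring stem cells with Notch ligands and growth factors. Paneth cells instead release granules of alpha-defensins, lysozyme and secreted phospholipase. The Reg3 lectins are antibacterial proteins that enterocytes and Paneth cells make in response to bacteria, through MyD88 signalling and through interleukin-22 and STAT3. Ehf encodes a transcription factor of the ETS family, whose members bind DNA with a GGAA core.

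RefSeq start sites on GRCm38.p6 were available for 6 of the 8 members. The 250 bases upstream of the start are printed for the marker Reg4, for the pentraxin gene Mptx1 and for the neighbouring Reg3b and Reg3g, because Reg4, Mptx1 and the Reg3 pair differed in their pattern over the groups. Letters are in capitals where GGAA or its reverse complement TTCC was found. Reg4 covers chr3:98221906-98222155 and Mptx1 chr1:174330268-174330517, both on the plus strand. Reg3b covers chr6:78370635-78370884 on the plus strand and Reg3g chr6:78468875-78469124 on the minus strand. The gene span used for counting Reg3b begins at 78370657, inside this window. Positions counted from the start of Reg3b therefore hold for the RefSeq start alone.
Reg4: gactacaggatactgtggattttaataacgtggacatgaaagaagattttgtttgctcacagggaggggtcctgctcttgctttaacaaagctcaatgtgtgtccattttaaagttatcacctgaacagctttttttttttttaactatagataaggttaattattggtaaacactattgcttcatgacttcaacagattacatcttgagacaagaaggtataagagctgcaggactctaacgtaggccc
Mptx1: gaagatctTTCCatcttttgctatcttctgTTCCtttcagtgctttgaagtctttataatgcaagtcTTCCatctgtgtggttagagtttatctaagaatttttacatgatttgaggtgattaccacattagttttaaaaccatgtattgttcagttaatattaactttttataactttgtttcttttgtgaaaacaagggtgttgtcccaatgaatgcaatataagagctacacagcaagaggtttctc
Reg3b: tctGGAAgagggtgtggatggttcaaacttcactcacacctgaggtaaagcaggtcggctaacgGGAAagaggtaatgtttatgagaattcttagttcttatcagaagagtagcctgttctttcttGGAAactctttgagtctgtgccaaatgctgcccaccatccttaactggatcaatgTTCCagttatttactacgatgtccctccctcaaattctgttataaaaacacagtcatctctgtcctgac
Reg3g: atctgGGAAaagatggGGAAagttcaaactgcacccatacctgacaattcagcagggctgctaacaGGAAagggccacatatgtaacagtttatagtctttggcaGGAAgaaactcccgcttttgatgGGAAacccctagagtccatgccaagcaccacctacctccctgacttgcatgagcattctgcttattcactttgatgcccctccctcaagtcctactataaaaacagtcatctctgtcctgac
The Reg4 window held no GGAA on either strand, as did 6.55% of the 32851 promoter windows of this length. Mptx1 held 3 matches, Reg3b 4 and Reg3g 5, and 93.4% of all windows held at least 1. The longer motif GGAAGT, found in 19.7% of all windows, was in none of the 4. The STAT motif TTCNNNGAA was found once, in Reg3b from position -129 to -121 counted from the start site, where it overlaps a GGAA, and 7.02% of all windows held it. The Reg3b and Reg3g windows were 68.4% identical and share the 20 bases acagtcatctctgtcctgac directly before the start. Reg4 and Mptx1 were 48.2% identical and share the 10-base run tataagagct. Matches describe the letters alone, and binding was not measured.

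Library totals ran from 7421411 to 10344161 counts, and 10.7% to 26.3% of a library fell in mitochondrial genes. Levels are CPM, counts scaled by library size, here with TMM factors that correct for composition. Fold changes are log2 values ± SE from an edgeR quasi-likelihood fit over 15743 genes, and a gene was called at an adjusted p under 0.05. Xist was counted 10376 to 18666 times in replicates 1 and 2 of each group and 16 to 30 times in replicates 3 and 4, so each group held 2 females and 2 males. Ehf itself was at 481, 454, 394 and 385 CPM in Control-OIL, at 342, 338, 326 and 375 in Control-TMX and at 362, 371, 309 and 323 in EHF IKO. These are reads over the whole gene and do not measure a deletion of part of it. The epithelial genes Epcam, Cdh1 and Vil1 reached at least 621 CPM in every library. The 12 listed small intestinal genes summed to 114 to 394 CPM, of which Fabp2 held 34.3 to 184, Slc10a2 13.7 to 75.6 and Alpi 10.3 to 111.5, while Apoa4 and Lct stayed at or below 3.31 CPM. In bulk RNA, fewer cells of a type and less RNA per cell cannot be told apart. In EHF IKO replicate 2, the predicted gene Gm10800 took 7.76% of all counts, against at most 0.0833% in the other 11 libraries, and without that library the log2 fold changes of Reg4 were 1.91 against Control-OIL and 2.11 against Control-TMX. Control-TMX replicate 1 held pancreatic transcripts, given with the Reg family. Nothing in the labels ties the 12 mice to litters or cages.

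Reg4 (ENSMUSG00000027876, chr3:98222156-98236748) was higher in every EHF IKO library than in any control. In Control-OIL it was at 96.1, 67.9, 73.2 and 49.8 CPM in replicates 1 to 4, and in Control-TMX at 49.7, 41.0, 61.9 and 95.8. In EHF IKO it was at 222, 290, 197 and 386 CPM. The control groups overlapped, and the lowest knockout library lay above the highest control library. The group means ± SD were 71.8 ± 19.1, 62.1 ± 24.1 and 274 ± 84.8 CPM (n = 4 each, listed as Control-OIL, then Control-TMX, then EHF IKO). The log2 fold change of EHF IKO was 1.93 ± 0.29 against Control-OIL and 2.13 ± 0.29 against Control-TMX, a level 4.09-fold above the mean of both controls. These values describe a gene chosen for this difference and carry no test. Between the 2 control groups, a comparison that the choice did not use, Reg4 differed by -0.20 ± 0.28 (edgeR adjusted p = 0.809).

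Spink4 (ENSMUSG00000028415, chr4:40920052-40931395), a Kazal-type protease inhibitor secreted by goblet and deep crypt cells, followed the same order with a smaller step. It was at 186, 130, 146 and 168 CPM in Control-OIL, at 78.9, 85.3, 138.3 and 158 in Control-TMX, and at 231, 218, 191 and 267 in EHF IKO. The lowest knockout library, at 191 CPM, lay just above the highest control library, at 186. The log2 fold change of EHF IKO was 0.53 ± 0.20 against Control-OIL and 0.97 ± 0.20 against Control-TMX. Control-TMX differed from Control-OIL by -0.45 ± 0.20 (edgeR adjusted p = 0.369).

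Pla2g2a (ENSMUSG00000058908, chr4:138831857-138835186) encodes the secreted group IIA phospholipase A2, which attacks bacterial membranes. C57BL/6 mice carry a disrupted allele of the gene, and the annotation lists it as a polymorphic pseudogene, so its transcript does not measure enzyme. It was at 3.49, 1.44, 4.59 and 8.89 CPM in Control-OIL, at 3.88, 3.09, 2.86 and 2.99 in Control-TMX, and at 13.9, 12.1, 13.6 and 17.2 in EHF IKO. Every knockout library was above every control library. EHF IKO lay 3.03-fold above Control-OIL (log2 SE 0.34), and its log2 fold change against Control-TMX was 2.16 ± 0.36. The controls differed by -0.55 ± 0.38 (edgeR adjusted p = 0.571), and by 0.02 (adjusted p = 0.986) without Control-OIL replicate 4, the highest control. Pla2g2a lies inside the span of Pla2g5 on the other strand, and the counts ignore strand. Pla2g5 itself was at 8.30 to 20.04 CPM in Control-OIL and 6.62 to 16.3 CPM in EHF IKO, ranges that overlap.

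Mptx1 (ENSMUSG00000026531, chr1:174330518-174332873), a mucosal pentraxin of the colon, did not follow Reg4. It was at 729, 315, 462 and 248 CPM in Control-OIL, at 233, 221, 228 and 246 in Control-TMX, and at 95.6, 105, 187 and 375 in EHF IKO. In EHF IKO, 3 libraries were below all 8 controls, and replicate 4, also the highest for Reg4 and Spink4, was within the Control-OIL range. The log2 fold change was -1.20 ± 0.44 against Control-OIL and -0.28 ± 0.43 against Control-TMX. All 4 Control-TMX libraries lay below the lowest Control-OIL library by a narrow margin, and the difference of -0.92 ± 0.44 did not pass the test (edgeR adjusted p = 0.411). The ratio of Reg4 to Mptx1 CPM was 0.132 to 0.216 in Control-OIL, 0.185 to 0.389 in Control-TMX and 1.03 to 2.75 in EHF IKO. The ratio of Reg4 to Spink4 was 0.295 to 0.524, 0.447 to 0.630 and 0.959 to 1.45 in the same order. Mptx1 is 91.9% identical over its transcript to Mptx2, a Paneth cell gene, and Mptx2 had no count in any library, which allows up to 0.404 CPM in the shallowest library when 3 counts are taken as the floor.

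**Figure D1:**
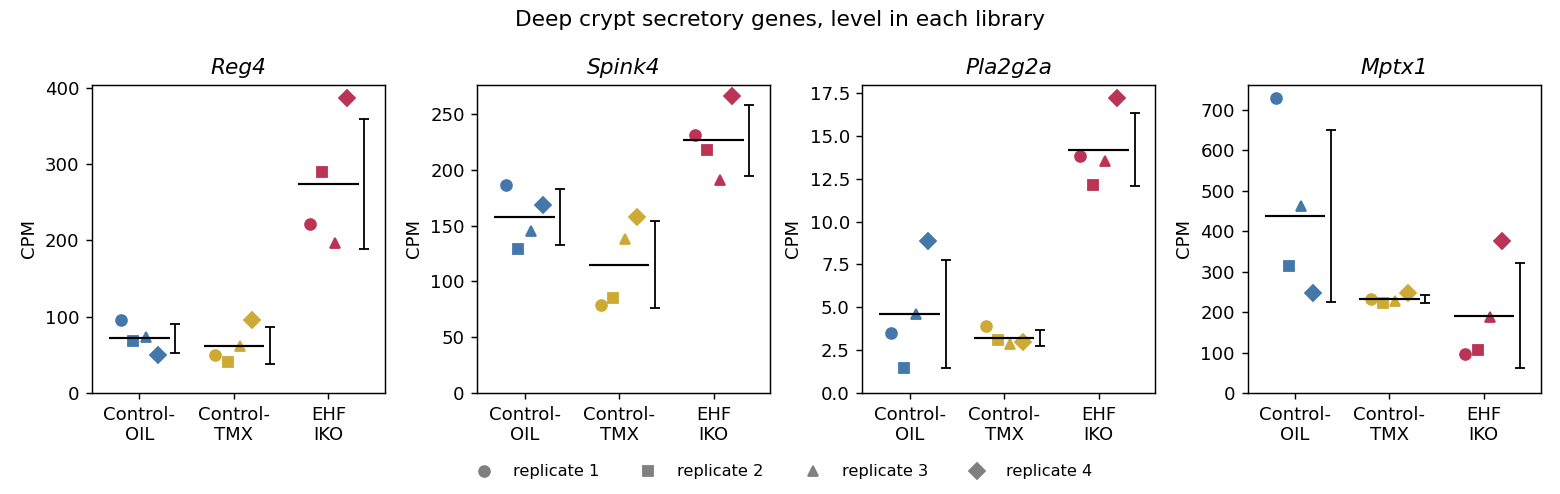
CPM (linear axes from 0) of Reg4, Spink4, Pla2g2a and Mptx1 in each library, by group, with the replicate number as marker shape, the group mean as a line and 1 SD as a bar beside it (n = 4). Reg4 spans 41.0 to 96.1 CPM in the controls and 197 to 386 in EHF IKO, while Mptx1 in EHF IKO runs from 95.6 to 375 and overlaps both control groups.

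Of the 6 tested members, 2 (Reg4 and Pla2g2a) were called higher in EHF IKO against Control-OIL, where 0.921% of all tested genes were called higher. Against Control-TMX 3 members (Reg4, Spink4 and Pla2g2a) were called higher, beside 0.33% of all genes, and the same 3 were called against the mean of both controls, beside 0.858%. These were also the members whose EHF IKO libraries all lay above all 8 controls, a pattern shown by 1.17% of tested genes. No member was called lower. Without EHF IKO replicate 2 the members called were 1 (Reg4) against Control-OIL and 2 (Reg4 and Pla2g2a) against Control-TMX and against the mean, and without Control-TMX replicate 1 Spink4 was no longer called against Control-TMX. Nothing is read from these counts, since the members were chosen on these contrasts, and the 2 single-control contrasts share the EHF IKO libraries. Between the control groups edgeR called 13 genes (0.0826%) and none of the 6 members, of which none passed an adjusted p of 0.05 and all 6 had negative values, with a median of -0.74 beside -0.01 over all genes. Of the 15743 genes, 2028 had an unadjusted p under 0.05 in that comparison and DESeq2 called 196.

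**Figure D2:**
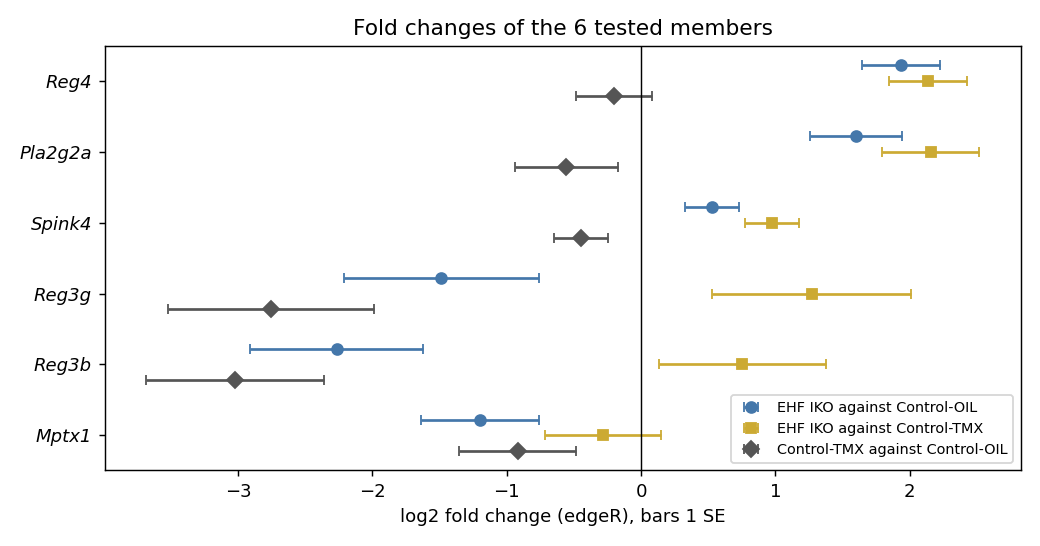
Log2 fold change of the 6 tested members in EHF IKO against Control-OIL (circles), EHF IKO against Control-TMX (squares) and Control-TMX against Control-OIL (diamonds), with bars of 1 SE. Reg4, Pla2g2a and Spink4 lie to the right of 0 against either control, whereas Reg3b and Reg3g lie at -2.27 and -1.49 against Control-OIL and at 0.75 and 1.27 against Control-TMX.

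For the antibacterial lectins Reg3b and Reg3g the 2 control groups lay apart and EHF IKO overlapped both. Reg3b (ENSMUSG00000071356, chr6:78370657-78373466) was at 504, 338, 2685 and 1191 CPM in Control-OIL, at 145, 133, 162 and 143 in Control-TMX, and at 472, 148, 208 and 152.6 in EHF IKO. Control-OIL was high and widely spread, Control-TMX was low and even, and 3 of the 4 knockout libraries lay between 148 and 208 CPM. Replicate 1 of EHF IKO fell within the Control-OIL range.

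Reg3g (ENSMUSG00000030017, chr6:78466269-78468872) was at 99.2, 77.5, 640 and 163 CPM in Control-OIL, at 13.4, 29.7, 41.2 and 59.3 in Control-TMX, and at 151.2, 74.7, 68.9 and 54.3 in EHF IKO. The same Control-OIL library, replicate 3, was highest for both genes, and EHF IKO replicate 1 was the highest knockout library for both. The CPM ratio of Reg3b to Reg3g was 4.19 to 7.33 in Control-OIL, 2.41 to 10.8 in Control-TMX and 1.99 to 3.12 in EHF IKO. The transcripts of these genes are 67.7% identical, and reads that map to several places were not counted.

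All Control-TMX libraries lay below all Control-OIL libraries for Reg3b, Reg3g and Mptx1, a pattern shown by 3.2% of tested genes. The difference was -3.02 ± 0.66 for Reg3b (edgeR adjusted p = 0.151) and -2.75 ± 0.77 for Reg3g (edgeR adjusted p = 0.240). DESeq2 called both (adjusted p = 0.00183 for Reg3b and 0.0135 for Reg3g), and over the alternatives the adjusted p ran from 0.00183 to 0.454 for Reg3b and from 0.0135 to 0.595 for Reg3g. EHF IKO differed from Control-OIL by -2.27 ± 0.64 for Reg3b and by -1.49 ± 0.73 for Reg3g, and from Control-TMX by 0.75 ± 0.62 and 1.27 ± 0.74. Without Control-OIL replicate 3 the Reg3g value against Control-OIL was -0.38.

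Genes of the interleukin-22 and STAT3 response in epithelium were counted as a list of 20, of which 16 were tested. The list holds receptor and signal transducer genes as well as genes that epithelium raises under these signals or during contact with bacteria. Between the controls 2 were called lower in Control-TMX and 14 were not called, with a median of -0.37. Nos2, the inducible nitric oxide synthase, was at 28.5 to 39.2 CPM in Control-OIL, 3.11 to 9.64 in Control-TMX and 18.7 to 35.4 in EHF IKO. It fell by 2.55 ± 0.30 on the log2 scale from Control-OIL to Control-TMX (edgeR adjusted p = 0.00404). Duoxa2, the maturation factor of the hydrogen peroxide-producing oxidase DUOX2, was at 16.0 to 19.98, 4.50 to 8.26 and 12.2 to 26.1 CPM in the same order. It fell by 1.56 ± 0.22 (edgeR adjusted p = 0.0129), a call lost without Control-TMX replicate 1 or 2 (adjusted p up to 0.0706). In EHF IKO both were above Control-TMX, Nos2 by 2.26 ± 0.30 (edgeR adjusted p = 0.00232) and Duoxa2 by 1.71 ± 0.22 (edgeR adjusted p = 0.00183). These comparisons share the Control-TMX libraries. Against Control-OIL 2 of the 16 were called lower in EHF IKO and none higher (median -0.14), the cytokine receptor subunit gene Il6st by 0.37 ± 0.08 below it and the fucosyltransferase gene Fut2 by 0.51 ± 0.12 below it (edgeR adjusted p = 0.0372 and 0.0430). They were called in 8 and 11 of 19 fits. Against the mean of both controls 1 of the 16 was called, Duoxa2, by 0.93 ± 0.18 (edgeR adjusted p = 0.0164), a call lost without EHF IKO replicate 1 or 3 (adjusted p up to 0.0805).

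Retnlb, a goblet cell antibacterial protein singled out after its values were seen, had the same order of control groups. It was at 19.2 to 70.4 CPM in Control-OIL, 5.90 to 11.0 in Control-TMX and 7.45 to 31.97 in EHF IKO. The control groups did not overlap and differed by -2.19 ± 0.49 (edgeR adjusted p = 0.145, DESeq2 adjusted p = 0.00439, with 0.00439 to 0.424 over the alternatives). Of 20 genes for bacterial sensing and MyD88 signalling, 19 were tested, and 1 fell against the mean of both controls while 18 were not called. That gene was Pglyrp1, a peptidoglycan recognition protein, at 56.5 ± 6.97, 35.5 ± 4.79 and 18.0 ± 3.29 CPM, which fell by 1.32 ± 0.13 (edgeR adjusted p = 8.37e-05). Against Control-OIL alone Tlr2, Tlr4 and Nod2, which encode bacterial receptors, were also called lower, by 0.90 ± 0.21, 0.57 ± 0.12 and 0.81 ± 0.19 below it (edgeR adjusted p = 0.0386, 0.0223 and 0.0404). Over 19 fits Tlr2 was called in 13, Tlr4 in 12 and Nod2 in 7, and adjusted p reached 0.123, 0.0782 and 0.136.

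**Figure D3:**
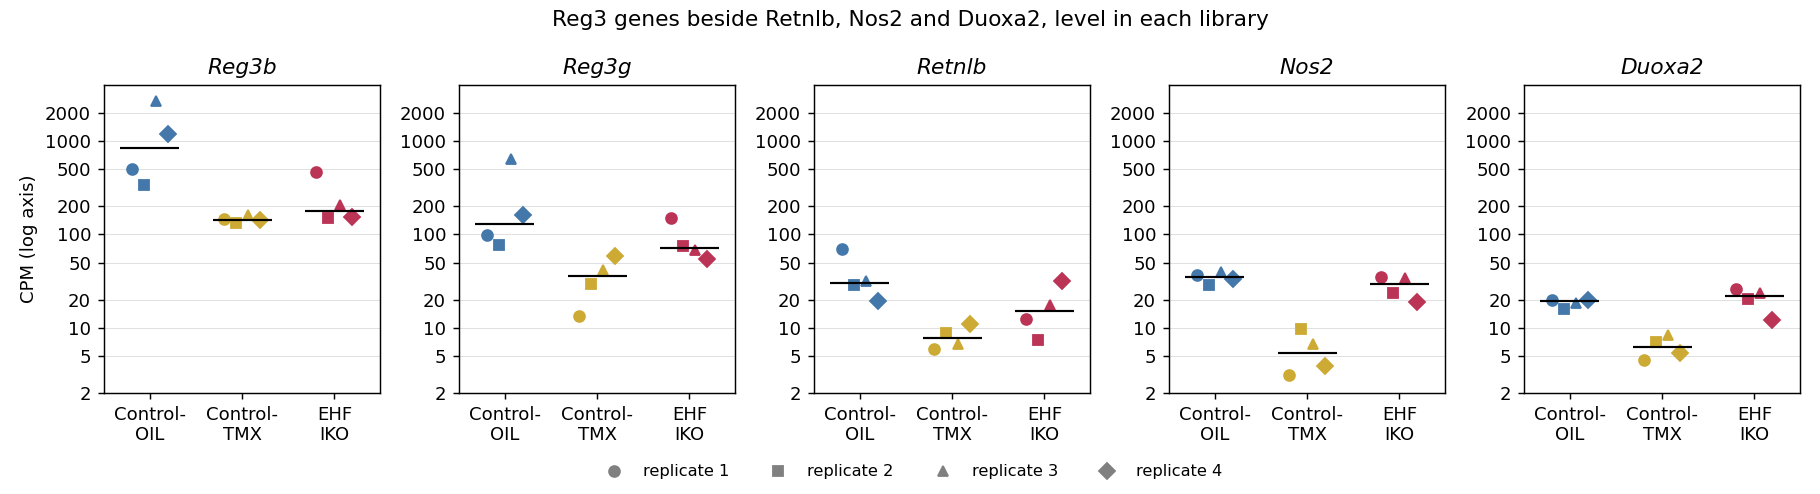
CPM on 1 shared log axis for Reg3b, Reg3g, Retnlb, Nos2 and Duoxa2 in each library, by group, with the replicate number as marker shape and the group median as a line. Control-TMX lies below Control-OIL in every panel, and EHF IKO overlaps Control-OIL in each of the 5 panels.

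Lyz1 and Mmp7, which encode the Paneth cell lysozyme and the protease that activates mouse alpha-defensins, were close to absent. Lyz1 (ENSMUSG00000069515, chr10:117287797-117292868) had 38 counts over the 12 libraries and at most 1.40 CPM. Mmp7 (ENSMUSG00000018623, chr9:7692090-7699585) had 29 counts and at most 0.978 CPM. By group Lyz1 had 19, 6 and 13 counts and Mmp7 19, 6 and 4, listed as Control-OIL, then Control-TMX, then EHF IKO. A sequence 92.0% identical to the Lyz1 transcript belongs to Lyz2, the macrophage lysozyme, at 4.87 to 17.1 CPM, so that the few Lyz1 counts could include reads of Lyz2. Of the alpha-defensins, 15 genes held 19 counts in all, and 8 of them held none. Neither Lyz1 nor Mmp7 was tested.

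The rest of the Reg family, which in mice is clustered with Reg3b and Reg3g on chromosome 6, was near the detection limit. Over the 12 libraries Reg1 had 88 counts, Reg3a 70, Reg3d 50 and Reg2 19. Reg1 and Reg2 are products of pancreatic acinar cells, and 23 of the Reg1 counts and 15 of the Reg2 counts were in Control-TMX replicate 1. That library also held 1264 counts (196 CPM) of 10 acinar genes, against at most 3.04 CPM in the other 11 libraries. Its Reg4 and Reg3b values lay within the range of the other Control-TMX libraries, and its Spink4 (78.9 CPM) and Reg3g (13.4 CPM) values were the lowest of the 12. Without it, Control-TMX differed from Control-OIL by -0.31 for Spink4 and -2.49 for Reg3g (edgeR adjusted p = 0.671 and 0.479), and EHF IKO from Control-TMX by 2.04 for Reg4, 0.83 for Spink4 and 1.00 for Reg3g.

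Compared per kilobase of exon, the members changed places between the groups. Length was that of all exons of a gene together. It was 2114 bases for Reg3g and 1142 for Reg3b, whose longest coding transcripts have 771 and 783 bases. Reg4 has 1021 bases by either measure. The places of Reg3b and Reg3g beside other members, and any lack of overlap with them, therefore hold for this length alone. In Control-OIL, Reg3b led with 1033 ± 936 CPM per kb, then Mptx1 with 549 ± 267, Spink4 with 330 ± 52.4, Reg3g with 116 ± 126 and Reg4 with 70.3 ± 18.7. Each of these 5 overlapped its neighbour over the libraries. In Control-TMX, Mptx1 (290 ± 13.2) and Spink4 (241 ± 81.8) overlapped, and Reg3b (127 ± 10.4), Reg4 (60.8 ± 23.6) and Reg3g (17.0 ± 9.15 CPM per kb) followed without overlap.

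In EHF IKO, Spink4 led with 475 ± 66.3 CPM per kb and no overlap with the next gene. Reg4 followed with 268 ± 83.0, overlapping Mptx1 with 239 ± 162, which overlapped Reg3b with 214.7 ± 134.6. By exon length Reg4 thus ranked 5 in the oil controls, 4 in the tamoxifen controls and 2 in the knockout. Pla2g2a ranked 6 in every group, at 4.96 ± 3.38, 3.45 ± 0.497 and 15.3 ± 2.30 CPM per kb, and Lyz1 and Mmp7 were below 1.2 in every library. These orders describe levels per length and were not tested.

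**Figure D4:**
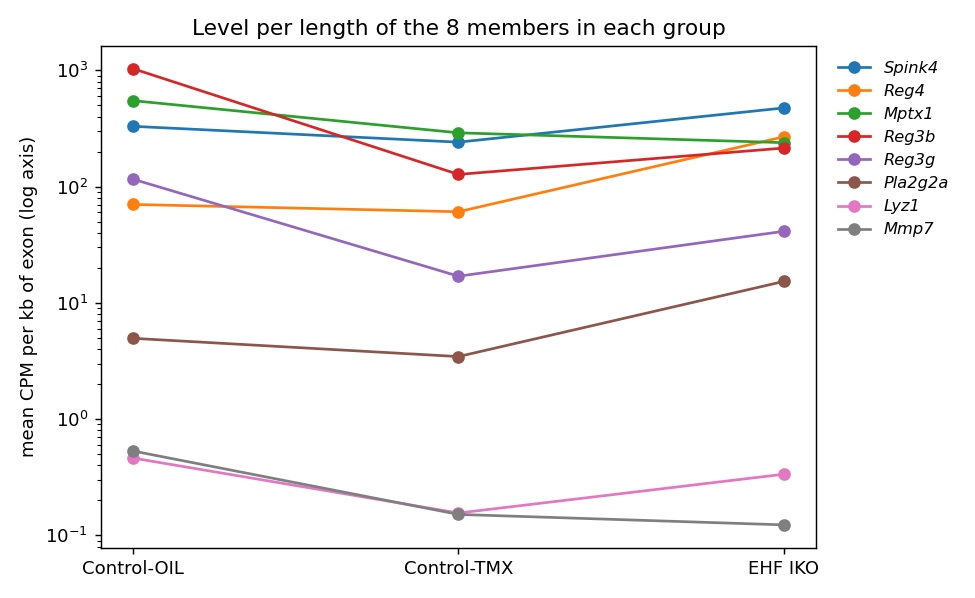
Mean level per exon length (CPM per kb, log axis) of the 8 members in each group (n = 4), with lines joining the values of 1 gene. Reg4 lies below Reg3g in Control-OIL and above it in Control-TMX and EHF IKO. It reaches the level of Mptx1 and Reg3b in EHF IKO, and Lyz1 and Mmp7 stay below 1 CPM per kb.

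Within the 8 control libraries, Reg4 was compared with each of the other 7 members, as a check on whether they vary together outside the knockout. By Pearson r the highest correlation was with Spink4 (log2 CPM, Pearson r = 0.718, exact permutation adjusted p = 0.306, Spearman rho = 0.714, exact permutation adjusted p = 0.134). Without the 2 libraries farthest from the median of Reg4, r was 0.446, over a narrower range of Reg4. Mptx1 had r = 0.643 and rho = 0.762 (exact permutation adjusted p = 0.306 and 0.134), and without the 2 farthest r was 0.314 on log2 CPM, 0.793 on CPM and 0.897 on deviations from group means. The 2 farthest were picked anew on each scale and were not the same libraries. These r values therefore differ in the libraries used as well as in scale. The remaining r values ran from -0.265 for Pla2g2a to 0.528 for Mmp7. Mmp7, with 29 counts in all, had rho = 0.738 (exact permutation adjusted p = 0.134), so that by rho Mptx1 and Mmp7 ranked above Spink4. None of the 7 pairs passed after adjustment over the 7 pairs.

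Among 11888 genes, those whose log2 CPM tracked Reg4 closely over the 8 controls included Sap30, Rpl36a, Nqo2 and H3f3a, with r of 0.979, 0.978, 0.973 and 0.971. High values were not particular to these genes, as 347 of the 11888 reached more than 0.9, and Spink4 ranked 2017. Why so many genes tracked Reg4 was not tested. In EHF IKO none of these 4 was called, and their log2 differences relative to both controls averaged lay between -0.02 and 0.18.

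Other products of deep crypt secretory and Paneth cells were less uniform. Beside the members, 6 genes of this list had enough reads to be fitted, and none was called in any of the 4 comparisons. The intelectin gene Itln1, which had enough reads mainly through EHF IKO and is given without a test, was at 0.0987 to 4.75, 0.53 to 0.621 and 2.62 to 5.71 CPM, and Control-OIL overlapped EHF IKO through its replicate 1. The angiogenin Ang4, an antibacterial ribonuclease, was at 16.2 ± 15.4, 17.7 ± 12.7 and 29.5 ± 14.8 CPM (0.80 ± 0.59, edgeR adjusted p = 0.705). The colipase gene Clps was at 2.45 ± 1.23, 3.27 ± 0.563 and 5.32 ± 0.773 CPM (0.91 ± 0.25, edgeR adjusted p = 0.0875), and Nupr1 went the other way (-0.59 ± 0.17, edgeR adjusted p = 0.119).

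Surface and niche genes of deep crypt secretory cells were counted as a further list. Of 10, 9 were tested, and none was called in any of the 4 comparisons, with a median of -0.09 against the mean of both controls. Kit, the receptor used to sort these cells, was at 72.8 ± 22.8, 71.2 ± 7.54 and 64.8 ± 3.81 CPM (-0.15 ± 0.15, edgeR adjusted p = 0.807). Cd24a was at 192 ± 71.4, 166 ± 31.5 and 160 ± 28.6 CPM. The Notch ligand gene Dll1 (0.31 ± 0.16, edgeR adjusted p = 0.481) and the growth factor gene Egf (-0.49 ± 0.16, edgeR adjusted p = 0.180) did not pass. At this spread small shifts in these genes could be missed, and the size that could be detected was not computed.

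Goblet cells share precursors with deep crypt secretory cells. Of 22 tested goblet genes, 1 rose and 3 fell against the mean of both controls, and 18 were not called (median 0.09). Zg16, a lectin that binds bacterial cell walls, rose by 0.80 ± 0.12 (edgeR adjusted p = 0.00242). Creb3l1, Ern2 and Galnt12, which serve the secretory pathway and mucin glycosylation, fell by 0.67 ± 0.14, 0.41 ± 0.09 and 0.47 ± 0.11 (edgeR adjusted p = 0.0260, 0.0344 and 0.0451). Over 18 fits these 3 were called in 13, 9 and 8. The calls were lost with the replicate block and in several fits that leave out 1 library (adjusted p up to 0.109, 0.141 and 0.173). Muc2, the main mucin, was at 15782 ± 4439, 20224 ± 2155 and 12271 ± 1193 CPM (-0.54 ± 0.16, edgeR adjusted p = 0.115).

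Of 16 tested transcription factors of the secretory lineage, 1 fell and 15 were not called (median -0.07). Spdef, an ETS factor of goblet and Paneth cell maturation, was at 94.7 ± 25.6, 111 ± 31.3 and 54.0 ± 4.54 CPM and fell by 0.92 ± 0.18 (edgeR adjusted p = 0.0189), a call lost without EHF IKO replicate 1, 2 or 3 (adjusted p up to 0.0789). Atoh1, which commits cells to the secretory lineage, was at 63.9 ± 11.5, 68.1 ± 11.8 and 79.3 ± 8.92 CPM (0.27 ± 0.12, edgeR adjusted p = 0.420), and Gfi1, its target, differed by -0.51 ± 0.17 (edgeR adjusted p = 0.181). Of 16 tested Wnt and stem cell genes none was called in any of the 4 comparisons (median -0.07 against the mean of both controls). Lgr5, the crypt base stem cell receptor, was at 13.3 ± 2.26, 9.90 ± 3.51 and 15.9 ± 4.97 CPM (0.46 ± 0.20, edgeR adjusted p = 0.388).

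Markers of other cells in the preparations also differed between the groups. The summed level of 13 macrophage genes was 38.7 to 57.8 CPM in Control-OIL, 35.7 to 48.6 in Control-TMX and 50.8 to 72.0 in EHF IKO, and 1 of 11 tested, Mrc1, rose by 1.21 ± 0.22 relative to the controls averaged (edgeR adjusted p = 0.0123, up to 0.0709 without EHF IKO replicate 1). The 11 mast cell genes summed to 2.57 to 5.48, 1.71 to 3.46 and 6.78 to 17.3 CPM, most of it in EHF IKO from the chymase gene Cma1, at 0.0987 to 1.66, 0.155 to 0.935 and 4.42 to 13.2 CPM. Cma1 entered the test through EHF IKO alone, where it was high, and its p is not given, while the protease gene Mcpt1 was at 0.395 to 3.21, 0 to 0.494 and 0.966 to 2.96 CPM. The 13 fibroblast and muscle genes summed to 329 to 421, 504 to 755 and 449 to 1029 CPM, with none of 13 called against the mean of both controls. Against Control-OIL alone, 2 of the 13, the collagen genes Col3a1 and Col1a2, were higher by 1.05 ± 0.22 and 1.10 ± 0.25 (edgeR adjusted p = 0.0318 and 0.0445, called in 9 and 6 of 19 fits), with a list median of 0.72. The 13 lymphocyte genes summed to 18.1 to 26.3, 10.9 to 14.8 and 10.1 to 25.4 CPM, with none of 3 called. Among the 8 tested small intestinal genes, Alpi, an alkaline phosphatase, rose by 1.83 ± 0.18 and Fabp6, a bile acid carrier, fell by 1.98 ± 0.47 (edgeR adjusted p = 0.000103 and 0.0451). Fabp6, at most 7.39 CPM, was called in 8 of 18 fits, with adjusted p up to 0.170. None of the 15 colonocyte genes was called against the mean of both controls, and their summed level was 8710 to 11472, 11805 to 12620 and 10892 to 14508 CPM. Against Control-OIL alone 1 of the 15, Krt20, was called higher, by 0.71 ± 0.17 (edgeR adjusted p = 0.0438, called in 5 of 19 fits). In that comparison 14 of the 15 had positive values, with a median of 0.33. Against Control-TMX none was called, with a median of 0.12. The part of these cells in the levels of Reg4 and the other members was not tested.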

How the data were processed

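Total RNA libraries from isolated colonic epithelium of 12 mice were used as 12 samples, grouped by their titles. The authors aligned the reads with STAR, version not given in the sources used here, to GRCm38, per the submitters' processing notes. The deposited counts are whole numbers, 1 value for each gene symbol, which the authors obtained from featureCounts 1.6.1, per the file headers, over the exons of Ensembl release 98, without regard to strand and leaving out reads that map to several places. The deposited exon lengths are in bases, per the file headers. Identifiers and gene types were taken from GENCODE for GRCm38, and gene positions from the exon coordinates deposited with the counts. Promoter windows were taken from RefSeq on GRCm38.p6.

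The test across genes was edgeR 4.0.16 (R 4.3.3, TMM factors, filterByExpr by group, robust quasi-likelihood fit of all 12 libraries, 9 residual degrees of freedom), and p was adjusted by Benjamini-Hochberg over 15743 genes. The common biological coefficient of variation was 18.3%. The test was checked on simulated data. The members and all 15 lists were chosen with earlier results of these data known. For members, comparisons with EHF IKO are therefore descriptions, and tests are given between the control groups and for correlations over the 8 controls. Named genes were all members and Reg genes, up to 4 genes with the smallest p per list, any list gene called between the controls, and the 5 genes most like Reg4, of which 1 is not reported here. Retnlb, Pla2g5, Muc2, Cd24a, Lyz2, Mptx2, Apoa4, Lct, Sis, Cubn, Epcam, Cdh1, Vil1 and Gm10800 were named outside this rule, after their values were seen. CPM for correlations was log2-transformed after adding 1.

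Alternatives were DESeq2 1.42.0 size factors, no filter, DESeq2, limma-voom (limma 3.58.1), fitting only the libraries of the groups compared, a block for replicate number, Xist as a covariate and leaving out each library. Protein sequences were not used here.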

Additional observations from a re-analysis of the deposited data

Results flagged for a closer look

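There were 7 values among 35 groups of 4 libraries that stood apart from the other 3 of their group by a Dixon test. For normally distributed values it flags about 5% of groups by chance. Here it was run on unlogged CPM, and a lone count beside no counts is always flagged. The number flagged is therefore not compared with that rate. Reg3g reached 640 CPM in Control-OIL replicate 3, against 77.5 to 163 in the others. Lyz1 was at 1.40 CPM in the same library, against 0.221 to 0.419, and at 0.806 CPM in EHF IKO replicate 4, against 0.266 to 0.349, values of 11 and 6 counts. In Control-TMX replicate 1, which also held acinar transcripts, Reg1 was at 3.57 CPM against 0.318 to 0.654, Reg2 at 2.33 CPM against 0 to 0.187, and Reg3d at 0.932 CPM against 0 to 0.124. Reg2 at 0.111 CPM in Control-OIL replicate 2 was 1 count beside none in the other 3.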

How the results depend on the processing

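Reg4 was called higher in EHF IKO under every alternative run, in 19 of 19 fits against Control-OIL and against Control-TMX and in 18 of 18 against the mean of both controls, with log2 values of 1.72 to 2.43. Pla2g2a was called in 13, 17 and 18 of these, and Spink4 in 1, 9 and 10. The fits share their libraries, and the members were chosen on these contrasts. The counts therefore describe how the values depend on processing and carry no test. Against Control-OIL the Pla2g2a call was lost in the compared groups alone and without Control-OIL replicate 1 or 3 or EHF IKO replicate 1, 2 or 3. Against Control-TMX it was lost without Control-TMX replicate 2 or 3, and the Spink4 call without any of 9 libraries, all but Control-TMX replicate 4 and Control-OIL replicates 1 and 2. Lyz1 and Mmp7, with 38 and 29 counts in all, were not compared. Between the controls, Pla2g2a with 1 library left out ran from -0.86 to 0.017, the latter without Control-OIL replicate 4, and the cause was not tested. The correlation of Reg4 with Reg3b (0.175) turned to -0.135 on deviations from group means, and that with Lyz1 (-0.0202) to 0.0114 on unlogged CPM. The order per length was the same with total-count scaling.

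Shares of tested genes that were called also moved. EHF IKO against Control-OIL gave 1.68% (265 genes), 3.40% with DESeq2, 0.740% in the compared groups alone, 1.10% with the replicate block and 0.650% to 4.41% with 1 library left out. Against Control-TMX it gave 0.8% (126), 1.94% with DESeq2, 0.457% with the block and 0.312% to 1.00%. Against the mean it gave 1.72% (270), 2.99%, 0.940% with the block and 0.670% to 3.23%. Control-TMX against Control-OIL gave 0.0826% (13), 1.48% with DESeq2, 0.222% with Xist as covariate, 0.114% with the block and 0.0187% to 0.415%. Without a filter 724, 500, 831 and 441 genes were called, 1.76%, 1.21%, 2.02% and 1.07% of more genes tested. Same-numbered libraries deviated together in part, with r of 0.219, 0.110, 0.0998 and 0.405 between Control-TMX and EHF IKO but -0.406 to 0.183 in the other pairs of groups, which does not meet the rule of r over 0.1 in every pair. The numbers also follow Xist, which was tried as a covariate. The causes were not tested.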
